A study of Mus musculus with 18 samples.

Results

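Transcripts of 10 genes of hepatic lipoprotein assembly, plasma lipoprotein remodelling and sterol efflux were followed in mouse liver. The genes were Mttp, Tm6sf2, Lcat, Lipc, Pltp, Scarb1, Abca1, Abcg5, Abcg8 and Soat2, and their rows were found by symbol. Each symbol had 1 row in the deposited table of 52636 genes, and all 10 rows passed the filter on low counts that left 13958 tested genes. Liver RNA of 18 mice in 6 groups of 3 replicates had been sequenced, with total counts of 6846471 to 9816124 per library.

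The H groups, H-WT and H-KO, came from a line with the conditional allele Hnf4atm1.1Gonz/J, and the BH groups, BH-WT and BH-KO, from a line that carried Arntltm1Weit/J besides it. Hnf4a encodes a nuclear receptor that hepatocytes depend on, and Arntl (Bmal1) encodes a core activator of the circadian clock. Both lines carried Albtm1(cre/ERT2)Mtz, a Cre under control of the albumin gene that works once tamoxifen is given, so deletion is directed to hepatocytes. All mice, controls included, received tamoxifen at 10 mg/mL in corn oil on 5 days at 8 weeks of age. WT and KO mice of a line had the same strain label, and the labels do not say which allele or treatment the WT mice lacked. The H and BH mice were 10 weeks old. The BH-HF-WT and BH-HF-KO mice, of the BH line, were 45 weeks old and had eaten a high-fat diet for 35 weeks from an age of 10 weeks. All livers were taken at ZT8, which is 8 hours after lights on.

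Hepatocytes export triglyceride and cholesterol by loading lipid onto apolipoprotein B in the endoplasmic reticulum and secreting the particle as very low density lipoprotein (VLDL). In plasma, lipases, an acyltransferase and transfer proteins reshape VLDL remnants and high density lipoprotein (HDL), and the liver takes HDL cholesteryl ester back through a surface receptor. Liver cells also pass sterol outward, to apolipoprotein A-I on the blood side and into bile across the canalicular membrane.

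Promoter sequence was matched by symbol for 7 of the 10 genes, in 9 entries of a RefSeq table (GRCm38.p6) that covers 250 bases before to 50 bases after each start. Tm6sf2, Scarb1 and Soat2 were not among them. The 3 windows printed run 5′ to 3′. They are the stretch that separates the starts of Abcg5 and Abcg8, whose transcripts moved together, and the upstream windows of Lipc and Abca1 that held a searched motif. The first is on the plus strand at chr17:84683012-84683120, the Lipc window on the minus strand at chr9:70934809-70934908, and the Abca1 window on the minus strand at chr4:53159896-53160145. No annotated exon overlaps them, and capitals mark motif matches on either strand.
Abcg5 and Abcg8 shared gap: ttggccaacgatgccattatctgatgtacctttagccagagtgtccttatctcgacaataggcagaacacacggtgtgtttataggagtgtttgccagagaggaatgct
Lipc second start: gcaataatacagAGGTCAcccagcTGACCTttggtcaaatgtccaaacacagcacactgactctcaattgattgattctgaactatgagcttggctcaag
Abca1: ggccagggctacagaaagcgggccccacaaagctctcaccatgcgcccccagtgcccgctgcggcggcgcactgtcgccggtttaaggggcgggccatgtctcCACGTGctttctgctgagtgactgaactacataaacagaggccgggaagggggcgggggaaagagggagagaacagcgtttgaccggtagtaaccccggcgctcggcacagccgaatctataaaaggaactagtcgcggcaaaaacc
The searched motifs were CAAAGTCC (core of the HNF4 motif), CACGTG (E-box), AGGTCA (nuclear receptor half-site) and TCACNCCAC (sterol regulatory element type). In the 300-base windows, CACGTG occurred in Abca1 at -147 from the start, and AGGTCA in Lipc at -88 and, as its reverse complement TGACCT, at -76 from the second of 2 listed starts. Over 32851 promoters of that length, AGGTCA was in 16.3%, CACGTG in 7.15%, CAAAGTCC in 1.42% and TCACNCCAC in 1.24%, so both matches are of common motifs. A match describes letters only, and the other members' windows held none of the 4 strings.

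Some libraries stood apart or went against their labels. Hnf4a was at 801, 887 and 580 CPM (read counts scaled to a common TMM-adjusted library size) in H-WT and at 564, 657 and 555 in H-KO, and it did not pass the test (log2 fold change -0.35 ± 0.21 SE, adjusted p = 0.208). Counts per gene do not resolve the exons that these alleles remove, so the level of Hnf4a does not check the deletion. The library labelled BH-KO replicate 1 had Hnf4a at 866 CPM against 499 and 494 in the other BH-KO libraries, and its log2 CPM correlated with BH-WT at a mean r of 0.943 and with its own group at 0.912. Arntl was raised in all 3 libraries labelled BH-KO (17.4, 22.3 and 24 CPM, against 0.420 to 0.798 in BH-WT) but not in those labelled BH-HF-KO (0.883 to 2.53 CPM, against 1.02 to 2 in BH-HF-WT). The libraries labelled BH-HF-KO thus lack the raised Arntl of the 10-week BH-KO libraries. H-WT replicate 3 held 1080 CPM of Xist, an RNA that coats the silenced X, and every other library 0.245 to 3.89 CPM. Many of the counts and calls that change without BH-KO replicate 1 or H-WT replicate 3 are given beside the results they touch.

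Summed over 10 hepatocyte marker genes, of which 9 had a matching row, the level was 106080 to 114380 CPM in H-WT and 31038 to 40895 CPM in H-KO, 109990 to 140870 in BH-WT and 41780 to 95949 in BH-KO. The 45-week sums were 119200 to 138940 CPM with the WT label and 74650 to 86871 CPM with the KO label, and no marker was at 0 throughout a group. Gene by gene, 4 of the 9 tested markers were lower and none higher in H-KO (median -0.27), against 34.9% of tested genes. In BH-KO 1 was lower and 1 higher (median 0.24), against 28.6%, and none passed in BH-HF-KO. Leaving out BH-KO replicate 1 gave 4 lower and 1 higher in BH-KO, against 41%. Leaving out H-WT replicate 3 gave 3 lower and 1 higher in H-KO, and 1 lower in BH-KO. Lower sums thus do not stand for a fall of most markers. In bulk tissue, fewer hepatocytes and less RNA of some marker genes per hepatocyte cannot be told apart. Apob and Apoa1 are among those markers, so that list is not separate from the lipoprotein genes.

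In H-KO liver, 5 of the 10 genes fell, namely Mttp, Tm6sf2, Lcat, Lipc and Soat2, and 1 rose, Scarb1 (edgeR quasi-likelihood test, Benjamini-Hochberg adjusted p under 0.05). Of all tested genes, 34.9% passed in that comparison, 19.1% lower and 15.8% higher. The same 6 genes had no overlap between H-KO and H-WT libraries, which held for 52% of tested genes (25.9% lower and 26% higher). Leaving out BH-KO replicate 1, which enters the shared estimate of spread, kept 5 lower and 1 higher, against 39.1%. The median log2 difference was -0.90 over the 10 genes and 0.00 over all tested genes. Pltp, Abca1, Abcg5 and Abcg8 did not pass. Without H-WT replicate 3, the same 5 fell and Scarb1 did not pass, against 27.8% of tested genes.

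In BH-KO liver, set against BH-WT, 4 of the 10 genes fell (Lcat, Pltp, Abcg5 and Soat2) and Scarb1 rose, against 28.6% of tested genes, 14.2% lower and 14.4% higher. When BH-KO replicate 1 was left out, 8 fell and 1 rose, against 41% of tested genes (21.6% lower), and Abca1 alone did not pass. With BH-KO and BH-WT fitted alone, none of the 10 passed, and the calls over all genes dropped from 3990 to 1094. Mttp, Tm6sf2, Lipc and Abcg8 were the 4 that passed without BH-KO replicate 1 and not with that library. Leaving out another library gave 1 passing gene without BH-WT replicate 1, 3 without BH-WT replicate 3, 2 without BH-KO replicate 2 and 1 without BH-KO replicate 3. Over all genes, 2329 passed without BH-KO replicate 2 and 2416 without BH-KO replicate 3, against 3990 with all libraries. Without H-WT replicate 3, 6 fell and 1 rose. Pltp, Abcg5 and Soat2 had no overlap between the BH groups, which held for 34.9% of tested genes, 16.8% lower. Between BH-HF-KO and BH-HF-WT, 0 of 10 genes and 0 of 13958 tested genes passed (0%), with edgeR as with limma-voom, and with DESeq2 among the genes to which it gave an adjusted p. At an unadjusted p under 0.05, edgeR had 488 genes (3.5%), with Abcg5 the 1 of the 10.

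**Figure D1:**
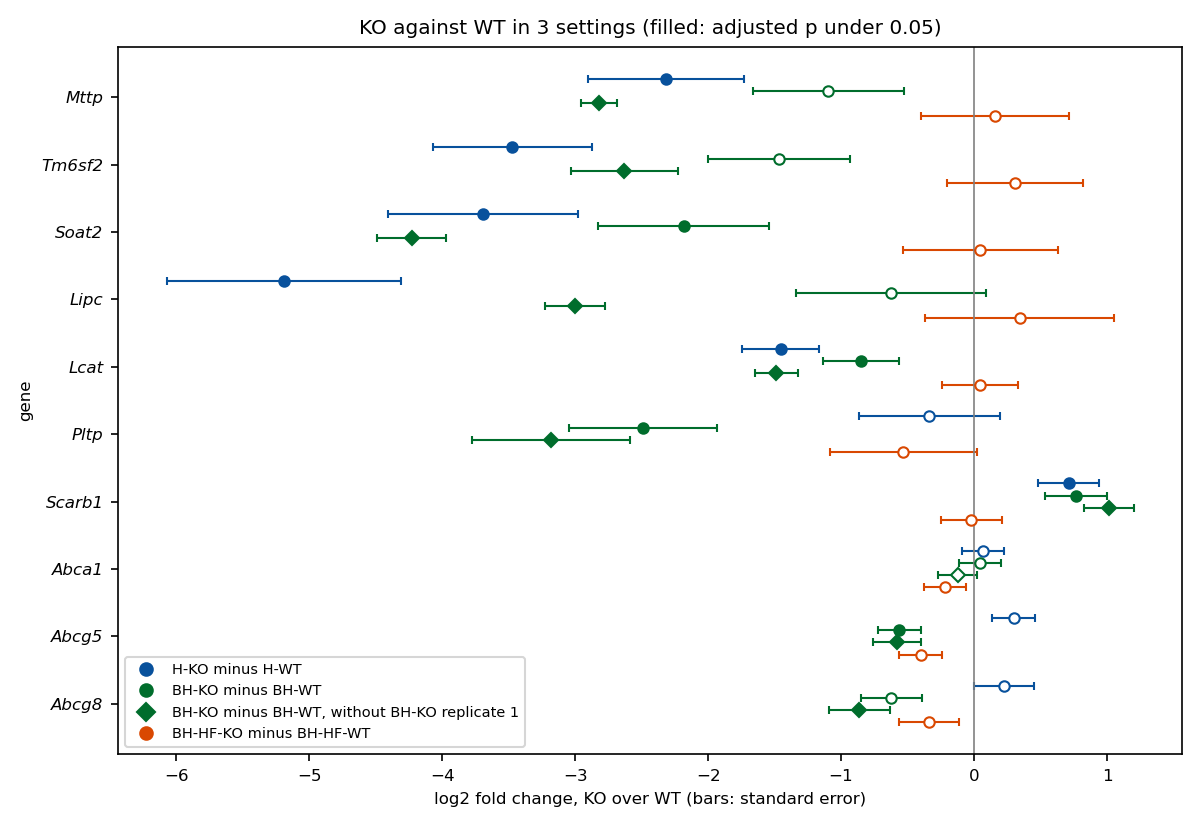
Log2 fold change of KO over WT for each gene (x axis; bars are standard errors) in the H line, the BH line and the BH line on high-fat diet at 45 weeks. Filled symbols passed at an adjusted p under 0.05, and diamonds leave out BH-KO replicate 1: without it Mttp moves from -1.10 to -2.82 and Lipc from -0.63 to -3.00, whereas every BH-HF-KO symbol is open.

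Assembly of VLDL needs Mttp, the lipid-transferring subunit of microsomal triglyceride transfer protein. Mttp (chr3:138089854-138144968, minus strand, mm10) stood at 311, 323 and 314 CPM in H-WT and at 54.3, 67.6 and 68.7 CPM in H-KO. It was at 320, 328 and 314 CPM in BH-WT and at 360, 47.9 and 42.8 CPM in BH-KO replicates 1, 2 and 3. The H groups did not overlap, and BH-KO replicate 1 was above every BH-WT library while replicates 2 and 3 were far below. Mttp was 4.97-fold lower in H-KO (log2 fold change -2.31 ± 0.59 SE, adjusted p = 0.00765). In BH-KO the difference was -1.10 ± 0.57 (adjusted p = 0.159), and without replicate 1 it was -2.82 ± 0.14 (adjusted p = 4.3e-10). Under high-fat diet Mttp was at 267, 315 and 308 CPM in BH-HF-WT and at 316, 312 and 364 CPM in BH-HF-KO, which overlap. The difference was 0.16 ± 0.56 (95% interval -1.06 to 1.37). Mttp exons overlap exons of Trmt10a and Gm43691 on the other strand over 589 bases. Trmt10a rose in H-KO (1.15 ± 0.30, adjusted p = 0.00699), opposite to Mttp, and whether the authors counted by strand is not stated in the labels.

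Tm6sf2 encodes a membrane protein of the endoplasmic reticulum and Golgi that aids the lipidation of VLDL. It was at 23, 23.9 and 48.1 CPM in H-WT and at 2.40, 2.59 and 3.50 CPM in H-KO, with the highest value in H-WT replicate 3. In BH-WT it was at 37.4, 24.6 and 21.4 CPM and in BH-KO at 22.6, 2.56 and 6.33 CPM. BH-KO replicate 1 lay within the BH-WT range, and the other 2 lay below every BH-WT library. Tm6sf2 was 11.1-fold lower in H-KO (-3.47 ± 0.60, adjusted p = 0.000678), and -3.04 ± 0.61 without H-WT replicate 3 (adjusted p = 0.00297). In BH-KO it was at -1.47 ± 0.54 (adjusted p = 0.0544), which passed without BH-KO replicate 1 (-2.63 ± 0.40, adjusted p = 0.000154) and without H-WT replicate 3 (-1.47, adjusted p = 0.0469). The 45-week libraries were at 18.7, 21.3 and 22.3 CPM in BH-HF-WT and at 24, 30.4 and 22.8 CPM in BH-HF-KO. These did not overlap, with BH-HF-KO higher, as for 5.67% of tested genes, but the difference was 0.31 ± 0.51 (adjusted p = 1). Tm6sf2 (chr8:70072924-70080066, plus strand) overlaps no other annotated exon.

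Soat2 encodes the acyl-CoA:cholesterol acyltransferase that makes cholesteryl ester for secretion in hepatocytes. Its levels were 27.1, 28.1 and 34.5 CPM in H-WT and 2.6, 2.16 and 2.14 CPM in H-KO. In BH-WT they were 42.7, 30 and 27.8 CPM, and in BH-KO 20.3, 1.23 and 2.29 CPM. Here BH-KO replicate 1 also lay below every BH-WT library, though far above the other 2. Soat2 fell 12.9-fold in H-KO (-3.69 ± 0.71, adjusted p = 0.00146). In BH-KO it fell by 2.18 ± 0.64 on the log2 scale (adjusted p = 0.0222) and without replicate 1 its log2 fold change was -4.23 ± 0.26 (adjusted p = 4.46e-09). Its BH-KO call did not hold with BH-KO replicate 2, BH-KO replicate 3 or BH-WT replicate 1 left out (log2 fold change -1.97 to -1.64, adjusted p = 0.0564 to 0.0803). The lowest value rests on 13 reads. At 45 weeks Soat2 was at 32.5, 40.1 and 34.7 CPM in BH-HF-WT and at 32.1, 39.8 and 39.0 CPM in BH-HF-KO, with overlapping groups. Soat2 (chr15:102150526-102163469, plus strand) has a paralog, Soat1, which macrophages and other cells use. Per kilobase of exon, Soat1 stood at 0.444 CPM and Soat2 at 13.5 CPM in H-WT, and Soat1 did not pass in H-KO (log2 fold change 0.01 ± 0.56).

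**Figure D2:**
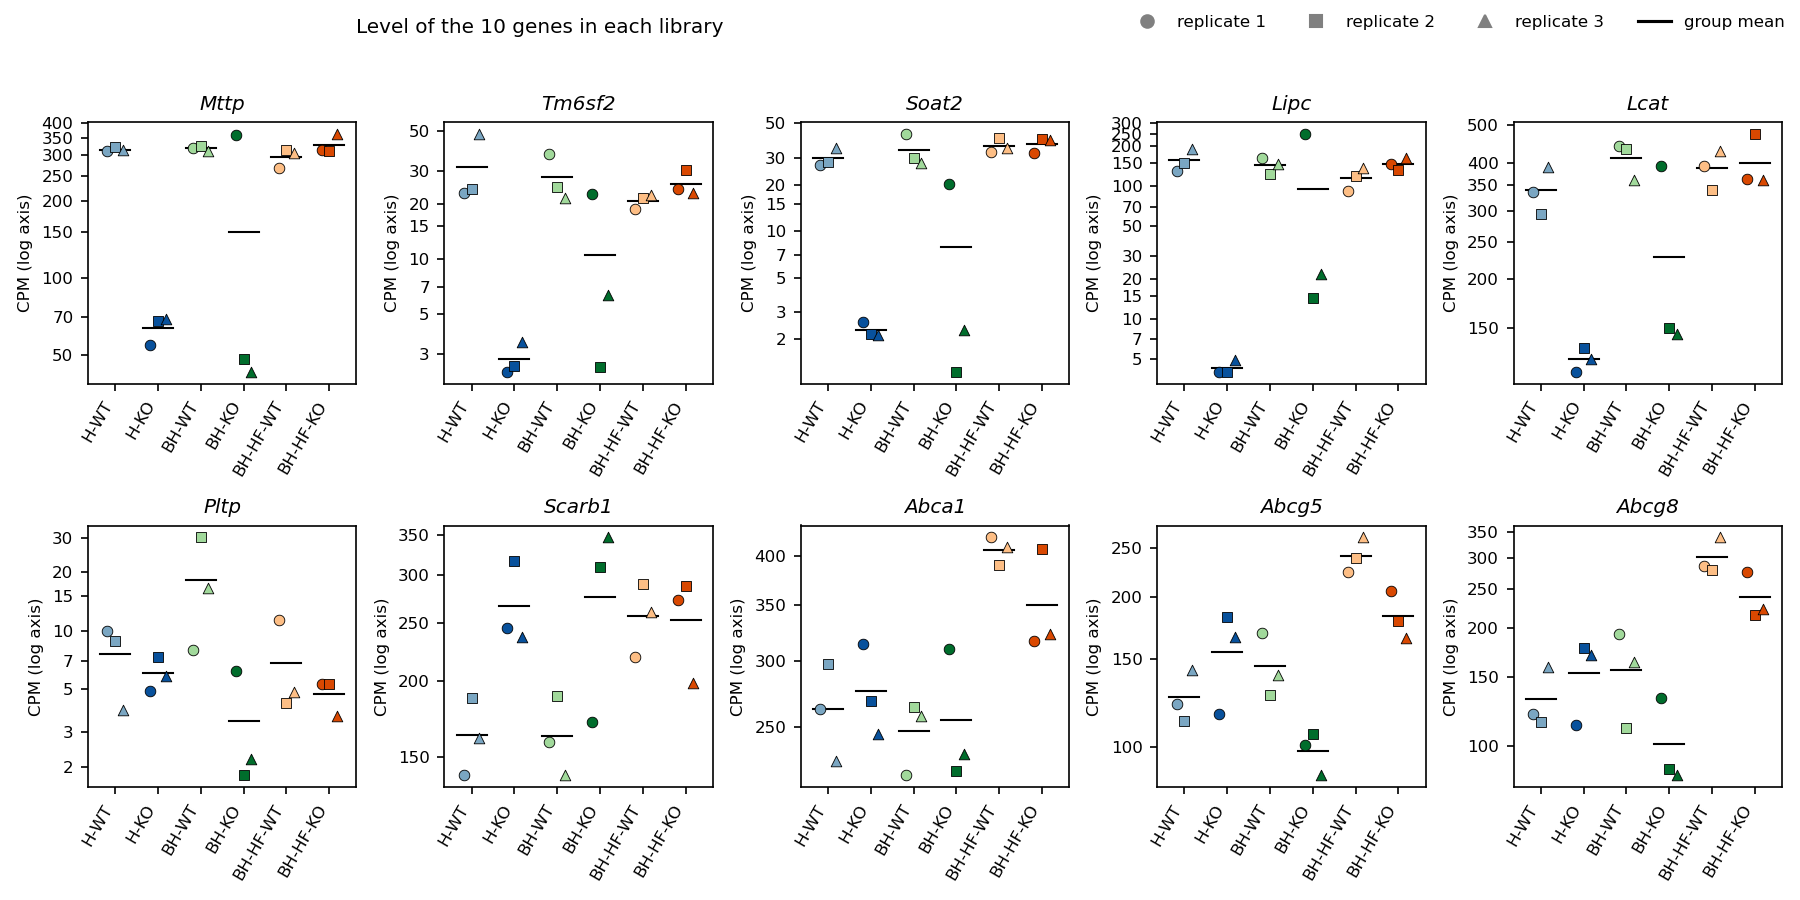
Level of each of the 10 genes (y axis, CPM, log scale) in the 18 libraries by group, with symbols for replicates and lines for group means. In the panels of Mttp, Tm6sf2, Soat2, Lipc and Lcat, the BH-KO circle (replicate 1) sits far above the other BH-KO symbols, and the Abca1, Abcg5 and Abcg8 panels are highest in BH-HF-WT.

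The plasma enzymes come next. Lipc encodes hepatic lipase, which hydrolyses lipids of remnants and HDL at the liver surface. Lipc (chr9:70798128-70952226, minus strand) was at 130, 151 and 191 CPM in H-WT and at 4.01, 3.99 and 4.86 CPM in H-KO. In BH-WT it was at 164, 124 and 148 CPM, and in BH-KO at 248, 14.4 and 21.8 CPM. BH-KO replicate 1 was the highest of all 18 libraries, and BH-KO replicates 2 and 3, though well below BH-WT, were above every H-KO library. Of the 10 genes, Lipc had the largest fall in H-KO, 36.5-fold (-5.19 ± 0.88, adjusted p = 0.000659). In BH-KO the difference was -0.63 ± 0.72 (adjusted p = 0.538), and without replicate 1 it was -3.00 ± 0.23 (adjusted p = 4.87e-08). At 45 weeks Lipc was at 92.4, 120 and 136 CPM in BH-HF-WT and at 148, 133 and 162 CPM in BH-HF-KO, with BH-HF-KO replicate 2 inside the BH-HF-WT range. That difference was 0.34 ± 0.71 (95% interval -1.21 to 1.89).

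Lcat encodes lecithin-cholesterol acyltransferase, which esterifies cholesterol on HDL. Its levels were 336, 294 and 391 CPM in H-WT and 115, 133 and 124 CPM in H-KO. BH-WT libraries were at 442, 433 and 362 CPM and BH-KO libraries at 392, 150 and 145 CPM. The H groups were apart, and BH-KO replicate 1 again lay within the BH-WT range. Lcat was 2.74-fold lower in H-KO (-1.46 ± 0.29, adjusted p = 0.00134). In BH-KO the fall was -0.85 ± 0.29 (adjusted p = 0.0371), and -1.49 ± 0.16 without replicate 1 (adjusted p = 3.19e-06). In BH-KO it did not pass with BH-KO replicate 2, BH-KO replicate 3 or any 1 of the BH-WT libraries left out (adjusted p = 0.0513 to 0.158), and without the filter on low counts (adjusted p = 0.104). At 45 weeks Lcat was at 393, 341 and 429 CPM in BH-HF-WT and at 364, 475 and 360 CPM in BH-HF-KO, and the groups overlapped. Lcat lies at chr8:105939551-105943382 on the minus strand.

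Pltp encodes phospholipid transfer protein, which moves phospholipid among lipoproteins and is made by macrophages as well as hepatocytes. It was at 9.95, 8.87 and 3.91 CPM in H-WT and 4.91, 7.34 and 5.83 CPM in H-KO. BH-WT libraries varied most, at 7.98, 30.2 and 16.6 CPM, and BH-KO libraries were at 6.23, 1.80 and 2.20 CPM. The H groups overlapped and the BH groups did not. Pltp did not pass in H-KO (-0.34 ± 0.53, adjusted p = 0.67) and was 5.61-fold lower in BH-KO (-2.49 ± 0.56, adjusted p = 0.00492). The fall without BH-KO replicate 1 was -3.18 ± 0.59 (adjusted p = 0.000759). BH-HF-WT libraries were at 11.4, 4.24 and 4.86 CPM and BH-HF-KO libraries at 5.30, 5.33 and 3.62 CPM, which overlap. The counts behind these levels were 19 to 247 reads.

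Macrophage markers moved with Pltp. Summed over 15 macrophage and Kupffer cell genes, the level was 324, 1583 and 911 CPM in BH-WT replicates 1 to 3 and 408, 74.0 and 99.6 CPM in BH-KO. It was 632, 291 and 88.2 CPM in H-WT, 198, 306 and 283 CPM in H-KO, 331, 89.5 and 153 CPM in BH-HF-WT and 134, 208 and 45.2 CPM in BH-HF-KO, and no marker was at 0 throughout a group. In each of the 6 groups, the library with the most Pltp was also the one with the highest summed macrophage markers. Of those 15 genes, 10 were lower and none higher in BH-KO than in BH-WT, against 28.6% of tested genes that passed, and 13 were lower without BH-KO replicate 1. In H-KO none was lower and 1 was higher, and none was higher without H-WT replicate 3. Their part in the Pltp difference was not tested. Pltp exons (chr2:164839518-164857711, minus strand) overlap exons of Ctsa on the other strand over 495 bases, and Ctsa was also lower in BH-KO (-0.58 ± 0.12, adjusted p = 0.00194).

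**Figure D3:**
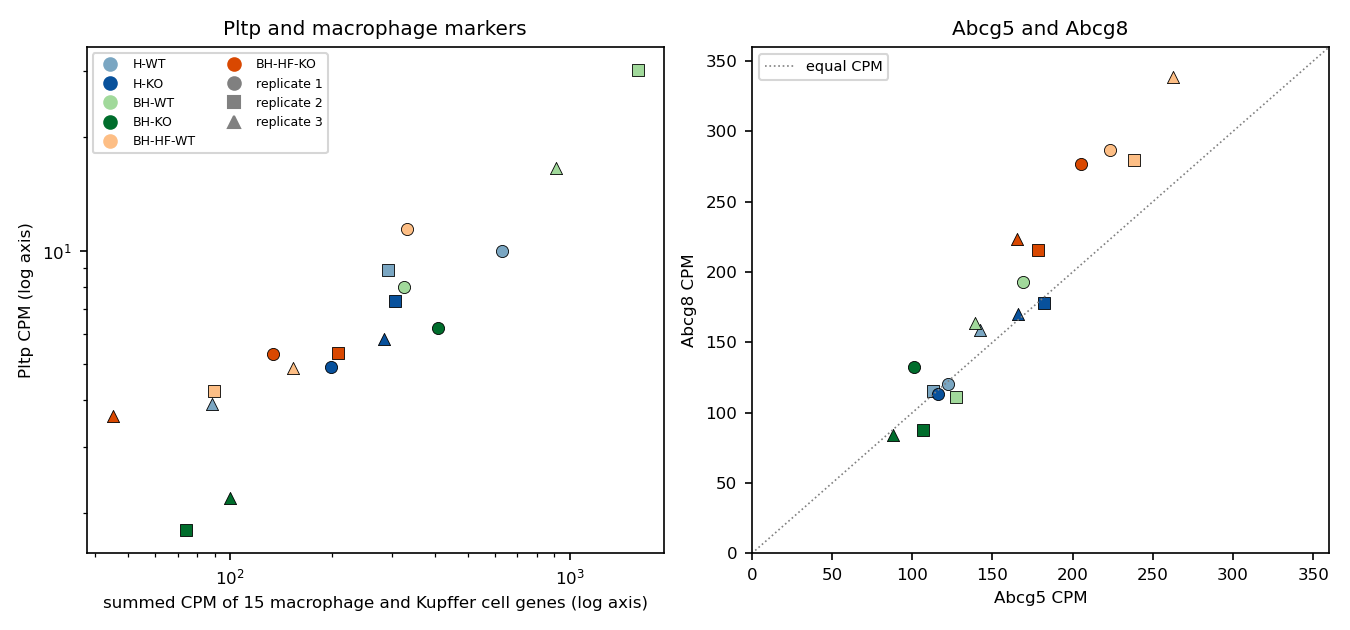
Left: Pltp (y axis, CPM, log scale) against the summed CPM of 15 macrophage and Kupffer cell genes (x axis, log scale) in the 18 libraries; BH-WT replicate 2 is highest on both, at 30.2 and 1583 CPM. Right: Abcg8 against Abcg5 (both CPM), with the dotted line at equal levels, above which all 6 of the 45-week libraries lie.

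Scarb1 encodes scavenger receptor BI, the hepatic receptor that takes up cholesteryl ester from HDL, and it was the member that rose. Its levels were 140, 188 and 161 CPM in H-WT and 246, 317 and 237 CPM in H-KO. They were 158, 189 and 140 CPM in BH-WT and 171, 310 and 347 CPM in BH-KO. The H groups did not overlap, and BH-KO replicate 1 lay within the BH-WT range. Scarb1 was 1.64-fold higher in H-KO (0.71 ± 0.23, adjusted p = 0.025) and 1.70-fold higher in BH-KO (0.77 ± 0.23, adjusted p = 0.022), and 1.01 ± 0.19 without BH-KO replicate 1 (adjusted p = 0.00045). The H-KO call was lost without H-KO replicate 2 (0.57), H-WT replicate 1 (0.61) or H-WT replicate 3 (0.70), with adjusted p = 0.0659 to 0.11. In BH-KO it did not pass with BH-KO replicate 2, BH-KO replicate 3, BH-WT replicate 1 or BH-WT replicate 3 left out (0.57 to 0.75, adjusted p = 0.0593 to 0.113). At 45 weeks it was at 220, 290 and 261 CPM in BH-HF-WT and at 273, 288 and 199 CPM in BH-HF-KO. The 45-week groups overlapped, with a difference of -0.02 ± 0.23 (95% interval -0.52 to 0.48). Scarb1 lies at chr5:125277087-125341094 on the minus strand.

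Among the transporters, Abca1 moves cholesterol and phospholipid to lipid-poor apolipoprotein A-I, the first step of HDL formation. Its levels were 263, 298 and 228 CPM in H-WT, 315, 269 and 245 CPM in H-KO, 219, 264 and 258 CPM in BH-WT and 310, 222 and 232 CPM in BH-KO. The KO and WT groups overlapped in both lines. The difference was 0.07 ± 0.16 in H-KO (95% interval -0.28 to 0.42) and 0.04 ± 0.16 in BH-KO (-0.30 to 0.39), which are narrow beside the changes of Mttp or Lipc. Leaving out BH-KO replicate 1 gave -0.12 ± 0.15 (adjusted p = 0.531). At 45 weeks Abca1 was at 421, 390 and 410 CPM in BH-HF-WT and at 317, 408 and 323 CPM in BH-HF-KO, and BH-HF-KO replicate 2 lay within the BH-HF-WT range. Abca1 is at chr4:53030787-53159895 on the minus strand.

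Abcg5 and Abcg8 encode the partner subunits of a heterodimer that pumps sterol into bile, and they are transcribed away from each other on chromosome 17. Abcg5 spans 84658234 to 84683011 on the minus strand and Abcg8 84676302 to 84700333 on the plus strand, and their annotated exons overlap over 82 bases, so some reads there could be counted for either. The nearer RefSeq starts are separated by the 109-base stretch printed above. Abcg5 was at 122, 113 and 142 CPM in H-WT, 116, 182 and 166 CPM in H-KO, 169, 127 and 139 CPM in BH-WT and 101, 106 and 87.9 CPM in BH-KO. Abcg8 was at 121, 115 and 159 CPM in H-WT, 114, 178 and 170 CPM in H-KO, 193, 111 and 164 CPM in BH-WT and 132, 87.4 and 84.5 CPM in BH-KO. H-KO overlapped H-WT for both genes, and all BH-KO libraries lay below BH-WT for Abcg5 but not for Abcg8. Abcg5 fell in BH-KO (-0.56 ± 0.16, adjusted p = 0.0185), also without replicate 1 (-0.58 ± 0.18, adjusted p = 0.0173). With BH-KO replicate 3 left out it was at -0.49, and with BH-WT replicate 1 left out at -0.44, each with adjusted p = 0.0818, which does not pass. Abcg8 was at -0.62 ± 0.23 (adjusted p = 0.0517), and it passed without BH-KO replicate 1 (-0.86 ± 0.23, adjusted p = 0.00739). It also passed without BH-WT replicate 2, H-KO replicate 1 or H-WT replicate 3 (-0.82 to -0.62, adjusted p = 0.0211 to 0.0465).

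In H-KO neither gene passed, with 0.30 ± 0.16 for Abcg5 (adjusted p = 0.168) and 0.22 ± 0.23 for Abcg8 (adjusted p = 0.481). Abcg5 passed there without H-KO replicate 1 (0.46, adjusted p = 0.0342) and with upper-quartile scaling (0.46, adjusted p = 0.0369), a scaling that raised the median of all genes from 0.00 to 0.15 in that comparison. At 45 weeks Abcg5 was at 224, 238 and 263 CPM in BH-HF-WT and at 205, 179 and 165 CPM in BH-HF-KO. Abcg8 was at 287, 280 and 339 CPM in BH-HF-WT and at 276, 216 and 224 CPM in BH-HF-KO. Every BH-HF-KO library was below every BH-HF-WT library for both genes, as for 4.69% of tested genes, yet neither passed (Abcg5 -0.40 ± 0.16, unadjusted p = 0.025, adjusted p = 1; Abcg8 -0.34 ± 0.23, adjusted p = 1). Across the 18 libraries the log2 CPM of Abcg5 and Abcg8 had a Pearson r of 0.96, a description over libraries that share groups and scaling. The ratio of Abcg5 to Abcg8 counts ran from 0.895 to 1.01 among H-WT libraries and from 0.975 to 1.02 among H-KO libraries. Among BH-WT libraries it ran from 0.85 to 1.14 and among BH-KO libraries from 0.761 to 1.22. The 45-week libraries were lower, from 0.775 to 0.852 with the WT label and from 0.740 to 0.828 with the KO label, below 1 in all 6.

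Whether the KO effect differed between the lines was tested as the BH effect minus the H effect. Lipc and Abcg5 passed, against 6.09% of tested genes (3.79% higher and 2.3% lower). For Lipc the effects were -0.63 and -5.19, a difference of 4.57 ± 1.10 (adjusted p = 0.0287), and without BH-KO replicate 1 the difference was 2.19 ± 0.29 (adjusted p = 0.000566). For Abcg5 the effects were -0.56 and 0.30, a difference of -0.86 ± 0.23 (adjusted p = 0.0373), and -0.87 without that library (adjusted p = 0.0356). The call of Lipc was lost in 8 of 18 fits that each left out 1 library, namely each H-KO and BH-WT library and H-WT replicates 2 and 3 (4.40 to 4.67, adjusted p = 0.0502 to 0.0781). The call of Abcg5 was lost in 7, namely those that left out BH-WT replicate 1, BH-WT replicate 3, BH-KO replicate 3, H-KO replicate 2, H-KO replicate 3, H-WT replicate 1 and H-WT replicate 2 (-0.89 to -0.73, adjusted p = 0.0593 to 0.106). Neither passed when the 4 groups were fitted alone (adjusted p = 0.0848 and 0.0838), and Lipc did not pass with limma-voom (3.35, adjusted p = 0.166) or without the filter on low counts (adjusted p = 0.0752).

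When BH-KO replicate 1 was left out, Pltp (-2.84 ± 0.75, adjusted p = 0.0332) and Abcg8 (-1.08 ± 0.30, adjusted p = 0.0389) passed too, 4 of 10 against 8.66% of tested genes. Tm6sf2, at 2.004 ± 0.792 with all libraries (adjusted p = 0.144), passed only without BH-KO replicate 2 (2.49, adjusted p = 0.0293) among the 18 fits. Mttp turned from 1.22 ± 0.80 to -0.50 ± 0.17 without BH-KO replicate 1 (adjusted p = 0.0702), and Soat2 from 1.51 to -0.53 (adjusted p = 0.359). Scarb1 differed by 0.05 ± 0.32 (95% interval -0.65 to 0.76) between the lines.

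The KO libraries of the lines were also compared directly. Lipc was 21.9-fold higher in BH-KO than in H-KO (4.45 ± 0.86, adjusted p = 0.00395), and Lcat was higher (0.88 ± 0.29, adjusted p = 0.0471) and Abcg5 lower (-0.65 ± 0.16, adjusted p = 0.0133), 3 of 10 genes against 16.4% of tested genes (10.1% higher and 6.29% lower). Without BH-KO replicate 1, Lipc was still higher (2.08 ± 0.23, adjusted p = 3.48e-05), and Mttp (-0.48 ± 0.13, adjusted p = 0.0169), Abcg5 (-0.67, adjusted p = 0.0208) and Abcg8 (-0.84, adjusted p = 0.0226) were lower, against 14.3%. Lcat was then at 0.25 (adjusted p = 0.299), and its call was lost in 15 of the 18 fits that left out 1 library. The Abcg5 call was lost without H-KO replicate 2 (-0.52, adjusted p = 0.0757) or 3 (-0.60, adjusted p = 0.0555). Without BH-KO replicate 2 or 3, Mttp and Tm6sf2 passed as higher in BH-KO (Mttp 1.66 and 1.68, Tm6sf2 2.31 and 2.09), and without replicate 2 so did Soat2 (2.22, adjusted p = 0.0257). Abcg8 passed also without H-KO replicate 1 (-0.78, adjusted p = 0.0479), and Tm6sf2 also without H-WT replicate 3 (1.82, adjusted p = 0.0478). The comparison shares libraries with both KO against WT comparisons, so its values are not separate evidence. None of the 10 passed with BH-KO and H-KO fitted alone, where the calls over all genes dropped from 2293 to 919. Lipc did not pass with limma-voom (3.24, adjusted p = 0.0697).

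**Figure D4:**
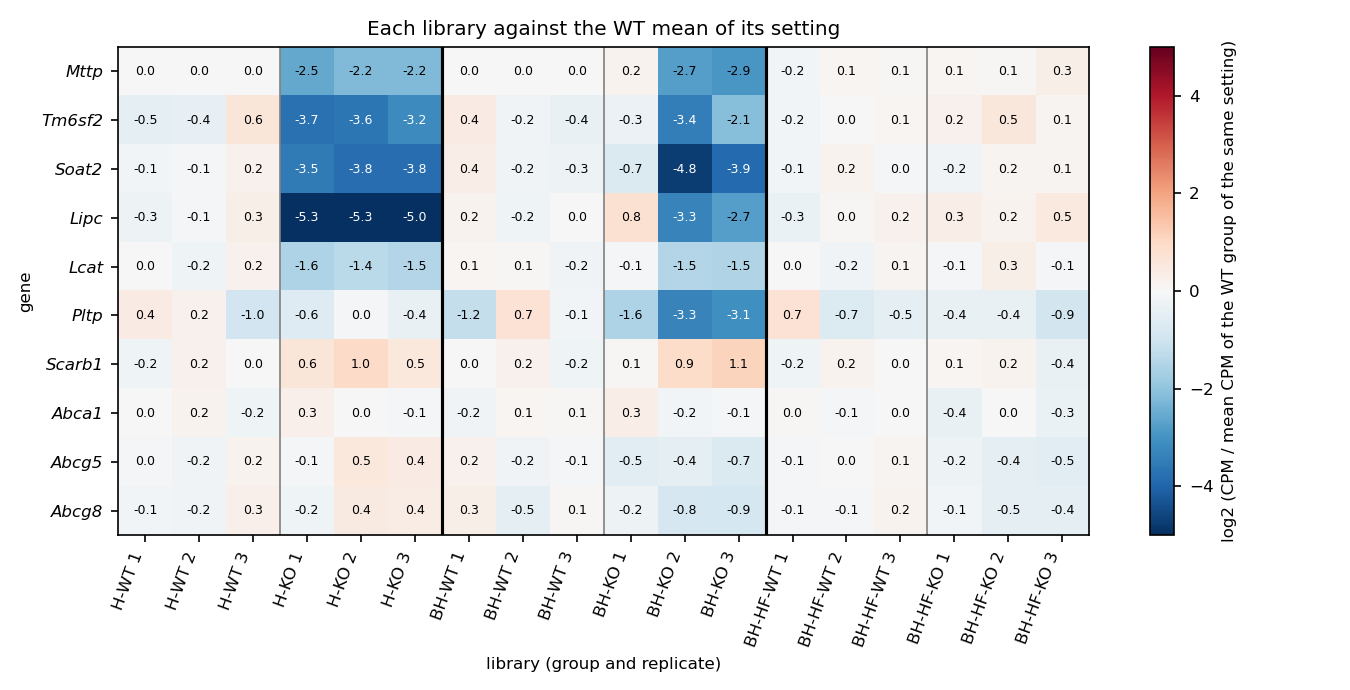
Each library against the mean of the WT group of its setting, as log2 (CPM over mean CPM), for the 10 genes (rows) and 18 libraries (columns). The BH-KO 1 column reads 0.2 for Mttp and 0.8 for Lipc, where BH-KO 2 and 3 read -2.7 and -2.9 for Mttp, and the BH-HF-KO columns stay between -0.91 and 0.55.

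The WT groups gave the effect of line and of age with diet. Between BH-WT and H-WT no member passed (0 of 10, against 0.165% of tested genes), with edgeR or with DESeq2 for the 7 members to which DESeq2 gave an adjusted p. At an unadjusted p under 0.05 edgeR had 1 member, Pltp (1.27 ± 0.52), and 1301 genes (9.32%). In BH-HF-WT against BH-WT, the 3 transporters rose and no other member passed, against 6.99% of tested genes, 2.79% higher. Abca1 was 1.64-fold higher (0.72 ± 0.16, adjusted p = 0.0168), Abcg5 1.66-fold (0.73 ± 0.16, adjusted p = 0.0166) and Abcg8 1.93-fold (0.95 ± 0.23, adjusted p = 0.0235). All 3 BH-HF-WT libraries were above all BH-WT libraries for these and for Scarb1, 4 of 10, against 15.7% of tested genes that did not overlap and were higher. Without BH-WT replicate 2 none of the 3 passed (Abca1 0.77, Abcg5 0.65 and Abcg8 0.76, adjusted p = 0.0526 to 0.119). The calls over all genes then dropped from 976 to 220. Abcg5 and Abcg8 were also lost without BH-WT replicate 3 or BH-HF-WT replicate 2 or 3 (0.67 to 1.004, adjusted p = 0.0517 to 0.0824). Age and diet cannot be told apart here, since these mice differed in both.

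Scarb1 was at 0.66 ± 0.23 in BH-HF-WT against BH-WT (adjusted p = 0.0924), and passed without BH-KO replicate 1 (0.66 ± 0.17, adjusted p = 0.0197). Then 4 of 10 genes were higher, against 751 of 14415 tested genes higher and 12.3% passing in either direction. Pltp was at -1.42 ± 0.52 (adjusted p = 0.11), and passed without BH-WT replicate 1 (-1.77, adjusted p = 0.0478). Of the 15 macrophage markers, 3 were lower in BH-HF-WT, against 6.99% of tested genes that passed in either direction. Without BH-KO replicate 1, 6 were lower, against 12.3%, and without H-WT replicate 3, 4 were lower. Mttp, Tm6sf2, Soat2, Lipc and Lcat lay between -0.42 and 0.10, with standard errors of 0.285 to 0.712.

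The KO effect at 45 weeks was compared with that at 10 weeks in the BH line. With all libraries no member passed, against 6.1% of tested genes. At an unadjusted p under 0.05 there were 5 of the 10, against 23.1% of tested genes. The limma-voom fit called 2, Soat2 and Tm6sf2. DESeq2 called none of the 7 members to which it gave an adjusted p, and it gave none to Mttp, Lipc and Soat2. Leaving out BH-KO replicate 1, 7 passed, against 21.1%. The 45-week effect minus the 10-week effect was positive for Mttp (2.98 ± 0.17), Tm6sf2 (2.94 ± 0.50), Soat2 (4.28 ± 0.31), Lipc (3.35 ± 0.28), Lcat (1.53 ± 0.21) and Pltp (2.65 ± 0.76). It was negative for Scarb1 (-1.03 ± 0.25). Adjusted p was 5.23e-09 for Mttp and 0.0231 for Pltp, the lowest and highest of the 7. With all libraries, the 45-week effects themselves were 0.16 for Mttp, 0.31 for Tm6sf2, 0.05 for Soat2 and 0.34 for Lipc. They were 0.04 for Lcat, -0.53 for Pltp and -0.02 for Scarb1, and none passed. Since the libraries labelled BH-HF-KO lacked the raised Arntl of BH-KO (difference -4.87 ± 0.61, adjusted p = 0.000297), no effect of the genotype at 45 weeks is read from them.

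Per kilobase of annotated exon, levels can be compared between genes. In H-WT, Lcat stood at 254 CPM per kilobase, Lipc at 73.2, Mttp at 50.9, Abcg5 at 46.4, Abcg8 at 35.1, Abca1 at 25.4, Scarb1 at 19.2, Tm6sf2 at 16.7, Soat2 at 13.5 and Pltp at 2.96 (means of 3 libraries). The library ranges did not overlap at the steps from Lcat to Lipc, Lipc to Mttp, Abcg8 to Abca1 and Soat2 to Pltp, and they overlapped at every other step of that order. In H-KO, Lipc was at 1.99, Soat2 at 1.04 and Tm6sf2 at 1.49 CPM per kilobase, beside Pltp at 2.35. With the longest transcript as the length, Scarb1 moved from rank 7 to rank 5 in H-WT. The means of Lipc (81.9) and Mttp (79.8) then lay close together, so the step between them depends on the length used.

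**Figure D5:**
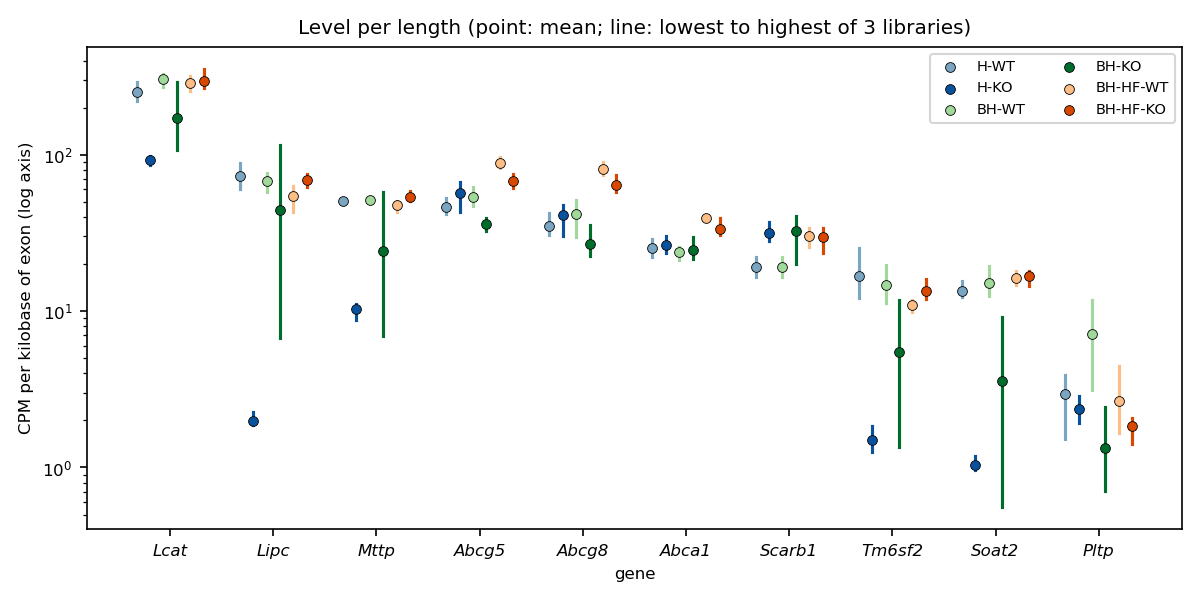
Level per length (y axis, CPM per kilobase of exon, log scale) of the 10 genes in the 6 groups; points are means and lines run from the lowest to the highest of 3 libraries. In H-KO the means of Lipc (1.99), Tm6sf2 (1.49) and Soat2 (1.04) lie below that of Pltp (2.35), and the long BH-KO lines come from replicate 1.

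For each member, 1 other gene had the most similar log2 CPM profile over the 18 libraries, by Pearson r and as a description. These were Ctsh for Mttp (0.992), Apoa2 for Lipc (0.992), Acbd4 for Soat2 (0.991), F10 for Lcat (0.989) and Acat3 for Tm6sf2 (0.977). They were Axl for Pltp (0.945), Trim26 for Abcg8 (0.91), Aff4 for Abca1 (0.897), Anks1 for Abcg5 (0.894) and Atp6v0e2 for Scarb1 (0.89). Among the members, Mttp, Tm6sf2, Soat2, Lipc and Lcat had pairwise r of 0.92 to 0.98, whereas Scarb1 had -0.61 to -0.51 with them and Abca1 0.25 to 0.44.

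Partners of VLDL assembly and secretion were listed apart from the members, 15 genes of which 14 had a matching row. In H-KO, 7 fell, 2 rose and 5 did not pass, against 19.1% of tested genes lower and 15.8% higher, with a median log2 difference of -0.54 against 0.00 over all tested genes. Without BH-KO replicate 1, 8 fell and 2 rose in H-KO, against 39.1% of tested genes. The largest falls were Smlr1 (32.7 ± 3.90 CPM, mean ± SD, to 1.60 ± 0.642, log2 fold change -4.32) and Cideb, a lipid droplet protein that helps lipidate VLDL (26.7 ± 2.01 to 1.88 ± 0.568, -3.81). The rises were Sort1, a sorting receptor (0.82), and Mia3, which helps export bulky cargo (0.46). Apob, chosen after its values were seen because its product is the particle's scaffold, was at 7213 CPM in H-WT and 769 CPM in H-KO (-3.23 ± 0.61, adjusted p = 0.000938). In BH-KO 1 fell, Cideb (-1.78), and 1 rose, Sort1 (0.85), a share below the 28.6% of all tested genes that passed. Without BH-KO replicate 1, 7 fell and 1 rose, against 41% of tested genes. None passed in BH-HF-KO.

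Of 18 genes of plasma lipoprotein remodelling and uptake, 6 fell, 3 rose and 9 did not pass in H-KO (median -0.25), against 19.1% of tested genes lower and 15.8% higher. The counts were 7 and 3 without BH-KO replicate 1, and 6 and 2 without H-WT replicate 3. Pdzk1, the adaptor that holds scavenger receptor BI at the hepatocyte surface, fell most (39.8 ± 2.34 to 0.977 ± 0.165 CPM, -5.32 ± 0.96), while Scarb1 itself rose. Lipg, endothelial lipase, fell by 4.50 on the log2 scale, and Vldlr (1.85) and Angptl4 (0.82) were the largest rises that passed. Angptl8 also had a higher mean in H-KO (166 ± 30.6 CPM, mean ± SD) than in H-WT (55.2 ± 1.63). In BH-KO 6 fell and 3 rose (median -0.38 against 0.03), where 14.2% of tested genes were lower and 14.4% higher, and 8 fell and 3 rose without BH-KO replicate 1. Without H-WT replicate 3, 6 fell and 2 rose. Lipg was at -4.37, and Lpl, lipoprotein lipase (37.0 ± 8.99 to 356 ± 96.6 CPM, 3.27 ± 0.48), and Vldlr (2.22) rose most. In BH-HF-WT against BH-WT, 2 of the 18 rose and none fell, and 2 rose and 2 fell without BH-KO replicate 1.

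Of 19 genes of intracellular and biliary sterol handling, 18 were tested, and in H-KO 4 fell, 4 rose and 10 did not pass (median 0.00), shares near the 19.1% lower and 15.8% higher of all tested genes. Stard4, a sterol carrier, fell most (209 to 17.6 CPM, -3.57 ± 0.38), followed by Cyp7a1, the rate-limiting enzyme of bile acid synthesis (-2.15 ± 0.56). Abcg1, another cholesterol exporter (1.79), and Gramd1b (1.60), a sterol transfer protein, rose most. Leaving out BH-KO replicate 1, 6 rose and 4 fell in this comparison, and leaving out H-WT replicate 3, 5 rose and 4 fell. In BH-KO 3 fell and 2 rose (median -0.12), against 28.6% of tested genes that passed. Stard4 (-1.98) and Lpcat3 (-0.53) were the largest falls that passed. The rises were Gramd1b (1.61) and Abcb11, the bile salt export pump (0.88). Without BH-KO replicate 1, 4 fell and 4 rose. In BH-HF-WT against BH-WT, 1 rose and 2 fell, with 5 falling without that library.

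Of 16 transcription factors known to act on such genes, 9 fell and none rose in H-KO, and 10 fell and none rose in BH-KO (medians -0.71 and -0.78). Of all tested genes, 19.1% were lower in H-KO and 14.2% in BH-KO. The counts lower were 10 and 11 without BH-KO replicate 1, and without H-WT replicate 3, 10 fell and 1 rose in BH-KO. Those with a fall in both comparisons included Ppara (-2.51 in H-KO and -2.14 in BH-KO), Cebpa (-1.55 and -2.20), Srebf1 (-1.25 and -1.52) and Nr1h4, the bile acid receptor (-1.14 and -0.69). Nr1h3, the oxysterol receptor LXR alpha (-0.97 and -0.80), Srebf2 (-0.81 and -0.85) and Rxra (-0.64 and -0.84) did so too. Foxo1 passed in H-KO (-0.72) and not in BH-KO (-0.04), and Nr1h2 (-0.77) and Creb3l3 (-0.95) passed in BH-KO and not in H-KO. Foxa2, Ppargc1a, Nr5a2, Nr0b2 and Hnf4a passed in neither. In BH-HF-WT against BH-WT, Srebf1 (1.82 ± 0.21, adjusted p = 0.0007) and Creb3l3 (0.57) rose and Srebf2 fell (-0.69), and 3 rose when BH-KO replicate 1 or H-WT replicate 3 was left out.

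Markers of other liver cells were read the same way. In H-KO, 4 of the 6 tested cholangiocyte markers were higher, and the summed level of all 9 was 137 to 201 CPM against 50.4 to 74.9 in H-WT. In BH-KO, 3 of 6 were higher, with sums of 135 to 378 CPM against 55.8 to 118, and without BH-KO replicate 1, 3 of 7 were higher and 3 lower, and without H-WT replicate 3, 3 of 7 were higher and 1 lower. Liver endothelial markers had 3 of 12 lower in BH-KO and none lower in H-KO (1 without BH-KO replicate 1), with sums of 165 to 192 CPM in BH-KO and 175 to 376 CPM in BH-WT. Stellate and fibroblast markers had 2 of 12 lower in H-KO and 3 of 12 in BH-KO. Without BH-KO replicate 1, 5 endothelial and 4 stellate and fibroblast markers and 1 lymphocyte marker were lower in BH-KO. These counts stand beside the 34.9% of tested genes that passed in H-KO and the 28.6% in BH-KO, or 41% without that library. Of 10 lymphocyte markers 4 were tested and none passed in either comparison. The part of these cells in the levels of the 10 genes was not tested.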

How the data were processed

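The submitters' processing notes name STAR 2.6 and mm10, without a role for either. Which program counted reads, with which annotation and strand setting, is not stated there. The authors deposited whole-number read counts per gene (raw counts), which were used as deposited. Gene IDs were matched to GENCODE M21 for 52403 of 52636 rows.

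All 18 libraries were fitted together, 1 mean per group, with edgeR 4.0.16 in R 4.3.3 (TMM scaling, filterByExpr with a minimum count of 10, robust quasi-likelihood F test, 12 residual degrees of freedom), and p-values were adjusted by Benjamini-Hochberg over 13958 genes. Errors are standard errors unless marked SD, and 95% intervals use 12 degrees of freedom. Alternatives used DESeq2 1.42.0, limma 3.58.1 (voom), other scalings and filters, a replicate block, the compared groups alone and each library left out. The removal of BH-KO replicate 1 with H-WT replicate 3, and the list counts without either, were chosen after seeing the data. The analysis was tested on counts simulated for H-KO against H-WT alone, in which no library stood apart from its group.

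The members and gene lists were chosen with earlier results of these data known. Genes were named by a rule: all members, up to 2 of the largest passing changes in each direction of each pathway list with at least 5 CPM in a group, any listed transcription factor, and the closest profile to each member. Some genes of the lists are counted but not reported here by name. The labels number 3 replicates per group and tie no samples across groups. P-values set a difference between groups against a spread between livers that was estimated over all 18 libraries, BH-KO replicate 1 included. Pltp and Soat2 rest on the fewest reads, so counting noise weighs most on their levels. The standard errors also hold the spread between livers, and in H-KO that of Lipc was the largest.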

Additional observations from a re-analysis of the deposited data

Results flagged for a closer look

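The difference between the BH and H lines in the KO effect passed its test for 2 of the 10 genes and for Arntl, against 6.09% of tested genes. For Lipc the BH effect minus the H effect was 4.57 ± 1.10 on the log2 scale (adjusted p = 0.0287), and 2.19 ± 0.29 without BH-KO replicate 1. For Abcg5 it was -0.86 ± 0.23 (adjusted p = 0.0373). The call was lost in 8 of 18 fits that left out 1 library for Lipc and in 7 for Abcg5, and for both with the 4 groups fitted alone. For Arntl, which only the BH line carries as a conditional allele, it was 4.43 ± 0.59 (adjusted p = 0.000943), with a higher count in the libraries labelled KO. For Arntl the KO effect at 45 weeks on high-fat diet minus that at 10 weeks in the BH line was -4.87 ± 0.61 (adjusted p = 0.000297). No cause of these differences was tested.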

How the results depend on the processing

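Of 2136 values of the 10 genes under alternative settings, 1945 kept their direction and their side of the threshold. Of the rest, 80 lost a call, 56 gained one and 55 changed sign. With all libraries, 0 to 6 of the 10 genes passed in each comparison, so most of these values had no call to lose. Many fits that left out 1 library also left the compared groups whole. Where no value shows the cause of a change, it was not tested. DESeq2 gave no adjusted p for Mttp, Lipc and Soat2, so its 3 passing members in H-KO against H-WT are of 7. Effects are called H-KO, BH-KO and BH-HF-KO for KO against WT. The difference between ages is the BH-HF-KO effect minus the BH-KO effect, from groups that differ in diet as well as age.

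Without the filter on low counts, 3 members passed in BH-KO, 1 member and 516 genes in the difference between lines, and 35 genes in BH-WT against H-WT. With DESeq2, 1 member and 1394 genes passed in the difference between lines, 1315 genes in the difference between ages, 101 in BH-WT against H-WT and 1495 in BH-HF-WT against BH-WT. With limma-voom, 8 members passed in BH-KO, 1 in the difference between lines, 2 in the difference between ages and 1 in BH-KO against H-KO, and 12 genes in BH-WT against H-WT. With the compared groups alone, 0 members passed in BH-KO, the difference between lines and BH-KO against H-KO, with 1094, 490 and 919 genes, and 431 genes in the difference between ages. With the pair of BH-KO replicate 1 and the Xist-positive H-WT library both left out, 9 members and 6199 genes passed in BH-KO, 7 and 3326 in the difference between ages, 5 and 2125 in BH-HF-WT against BH-WT, and 62 genes in BH-WT against H-WT.

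Upper-quartile scaling moved the higher and lower calls from 2208 and 2662 to 3338 and 2063 in H-KO, from 529 and 321 to 427 and 395 in the difference between lines, from 481 and 370 to 430 and 549 in that between ages, and from 1415 and 878 to 1076 and 1127 in BH-KO against H-KO. The median of all genes moved from 0.03 to 0.11 in BH-KO and from -0.01 to -0.11 in the difference between ages.

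Leaving out each library in turn gave 1 to 9 members and 2329 to 5917 genes in BH-KO, 0 to 4 and 347 to 1248 in the difference between lines, 0 to 7 and 353 to 3047 in that between ages, 0 to 4 and 220 to 1778 in BH-HF-WT against BH-WT, 1 to 6 and 1190 to 2461 in BH-KO against H-KO, 7 to 57 genes in BH-WT against H-WT and 0 to 1 gene in BH-HF-KO.

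Sign changes lay mostly near 0. Scarb1 in the difference between lines was at -0.0073 with upper-quartile scaling and -0.0327 with limma-voom, in BH-KO against H-KO at -0.0115 and -0.0395, and in BH-WT against H-WT at 0.0038 with DESeq2 size factors and 0.0039 with DESeq2. Without the pair of libraries, Abca1 was at -0.03 in H-KO and -0.12 in BH-KO, Mttp at -0.50, Lcat at -0.14 and Soat2 at -0.65 in the difference between lines, Mttp at -0.48 and Soat2 at -0.37 in BH-KO against H-KO, and Tm6sf2 at 0.25 and Lipc at 0.05 in BH-WT against H-WT. Ranges that crossed 0 on leaving out 1 library were, in the difference between lines, Mttp -0.50 to 1.66, Lcat -0.03 to 0.85, Scarb1 -0.14 to 0.31 (0.32 without the pair), Abca1 -0.19 to 0.0779 and Soat2 -0.53 to 2.05. In BH-KO against H-KO they were Mttp -0.48 to 1.68, Scarb1 -0.14 to 0.31 and Soat2 -0.37 to 2.22. In BH-HF-KO they were Lcat -0.10 to 0.13, Pltp -0.79 to 0.0594, Scarb1 -0.12 to 0.13 and Soat2 -0.0146 to 0.14. In BH-WT against H-WT they were Tm6sf2 -0.46 to 0.25, Lipc -0.23 to 0.0511, Scarb1 -0.12 to 0.11, Abca1 -0.18 to 0.0081 and Soat2 -0.0510 to 0.28. Abca1 ran from -0.0364 to 0.16 in H-KO and from -0.12 to 0.13 in BH-KO, and Soat2 from -0.0191 to 0.31 in BH-HF-WT against BH-WT.

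The replicate numbers were checked for pairing. Deviations of same-numbered libraries correlated at -0.25 to 0.13, and the numbers were treated as names. With 3 libraries per group, low correlations cannot exclude that same-numbered libraries shared an origin, which the labels do not state. With the replicate block, 0 members passed in the difference between lines and 14 genes in BH-WT against H-WT, where Scarb1 was at 0.0018. The block also ended the calls of Lipc (4.30, adjusted p = 0.0516) and Abcg5 (-0.86, adjusted p = 0.0614) in the difference between lines and of Lcat in BH-KO against H-KO (0.82, adjusted p = 0.0782).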
